A study of Mus musculus with 24 samples.

Results

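Wild-type (WT) basal cells of the mouse mammary gland were compared with WT mature luminal (ML) cells across all genes of an RNA-seq series, using 8 of its 24 libraries, 4 of basal and 4 of ML cells. The mice were females of the inbred FVB/N strain, 10 to 12 weeks old and in estrus, and the glands of 4 to 8 mice were pooled for a replicate. Live cells were sorted on 3 surface proteins, CD24, CD29 (the beta 1 integrin) and CD61 (the beta 3 integrin), after cells with lineage markers had been gated out. Those lineage markers are not named in the labels. Basal cells were CD24+CD29hiCD61+ and ML cells CD24+CD29loCD61-. The groups are defined by these gates alone. Between 0.5 and 2 ng of polyA RNA was amplified with the NuGEN Ovation system, without molecular identifiers, so limits given from counts cover counting error only. The WT luminal progenitor (LP; CD24+CD29loCD61+) libraries shared in the estimate of spread and are given here only as levels. Basal and ML cells from Id4 knockout (KO) females of the same strain, age, stage and sort, 4 libraries each, served for 1 comparison in separate animals. What the KO allele deletes of Id4 is not given by the labels, which refer to an earlier description of the mice.

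The mammary epithelium is a bilayer. Its outer, basal layer consists mainly of myoepithelial cells, which rest on a basement membrane and contract in response to oxytocin to eject milk, and it also holds cells able to rebuild a gland after transplantation. Mature luminal cells line the ducts, and many of them carry receptors for estrogen, progesterone and prolactin and pass these hormonal signals to neighbouring cells as secreted ligands.

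Both populations carried the markers of their labels. Acta2, which encodes smooth muscle actin and marks myoepithelial cells, had 4271, 3463, 2457 and 4513 CPM in WT basal, against 18.3, 45.5, 41.7 and 19.2 CPM in WT ML replicates 1 to 4. These levels are CPM, counts relative to library size, with libraries scaled to each other by edgeR's trimmed mean of M-values (TMM). Krt14, a keratin of basal epithelia, had 813, 352, 578 and 699 CPM in WT basal, against 0.8901, 2.76, 18.5 and 9.76 CPM in WT ML libraries. Prlr, the prolactin receptor, had 159, 456, 328 and 142 CPM in WT basal, against 6153, 5412, 7086 and 6150.3 CPM in WT ML libraries. For each of the 3 markers the groups were far apart and did not overlap. Of the genes whose proteins the sort used, Itgb3 was higher in basal cells (log2 fold change 4.64, SE 0.48, edgeR quasi-likelihood adjusted p = 5.36e-06) and Cd24a lower (log2 fold change -1.65, SE 0.28, edgeR adjusted p = 3.77e-04). Itgb1, the transcript of CD29, averaged 457 ± 147 CPM in basal and 295 ± 40.4 CPM in ML cells and was not called (log2 fold change 0.63, SE 0.24, edgeR adjusted p = 0.0663). It passed the threshold without WT basal replicate 2 (log2 fold change 0.82, edgeR adjusted p = 0.00365) and with replicates 3 and 4 alone, DESeq2, its size factors or limma voom.

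WT basal replicate 2 stood apart from the other basal libraries. Summed markers of LP cells came to 6144 CPM in it, against 509 to 898 CPM in the other 3 basal libraries, 455 to 1073 CPM in the ML libraries and 6557 to 18986 CPM in LP cells. Its milk protein genes summed to 25121 CPM, against 462 to 1191 CPM in the other basal libraries and 502 to 2955 CPM in ML cells. Its 10 immune cell markers summed to 146 CPM, against 10.3 to 16.4 CPM in the other basal and 1.38 to 11.4 CPM in the ML libraries. The part of these transcripts in the results was not tested. Results that rest on this library are given below with and without it, but for Lyz2 and Cldn2 the value without it is not given. In bulk samples, fewer cells of a type and less RNA per cell cannot be told apart. Total counts ran from 3180868 to 6524298 in basal and from 5474239 to 6958202 in ML libraries, so a count of 3 stood for 0.460 to 0.943 CPM in basal and 0.431 to 0.548 CPM in ML libraries. Libraries of 1 group differed more in basal than in ML cells, with a median standard deviation of 0.82 against 0.44 on the log2 CPM scale.

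Of 12771 genes tested, 3140 (24.6%) differed between basal and ML cells at an edgeR quasi-likelihood adjusted p under 0.05, which is the meaning of "called" throughout. In basal cells 1791 genes (14%) were higher and 1349 (10.6%) lower, and the median log2 fold change of all tested genes was 0.01. Large differences were more often toward higher levels in basal cells. At a log2 fold change beyond 4 there were 481 genes higher and 189 lower, and beyond 1 there were 1623 and 1183. When the test asked for a change beyond 2-fold (edgeR glmTreat, log2 fold of 1), 1430 genes passed (11.2%), 942 higher and 488 lower. In 3449 genes (27%) all 4 libraries of one group lay above all 4 of the other, and these included 2684 of the 3140 called genes. Called genes were 25.6% of the 11549 protein-coding genes tested. Of 182 lincRNAs tested 20.9% were called, 32 higher in basal cells and 6 lower, and of 226 antisense genes 9.74%, 19 higher and 3 lower. With replicates 1 and 2 alone, 871 genes were called, 596 higher and 275 lower.

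**Figure D1:**
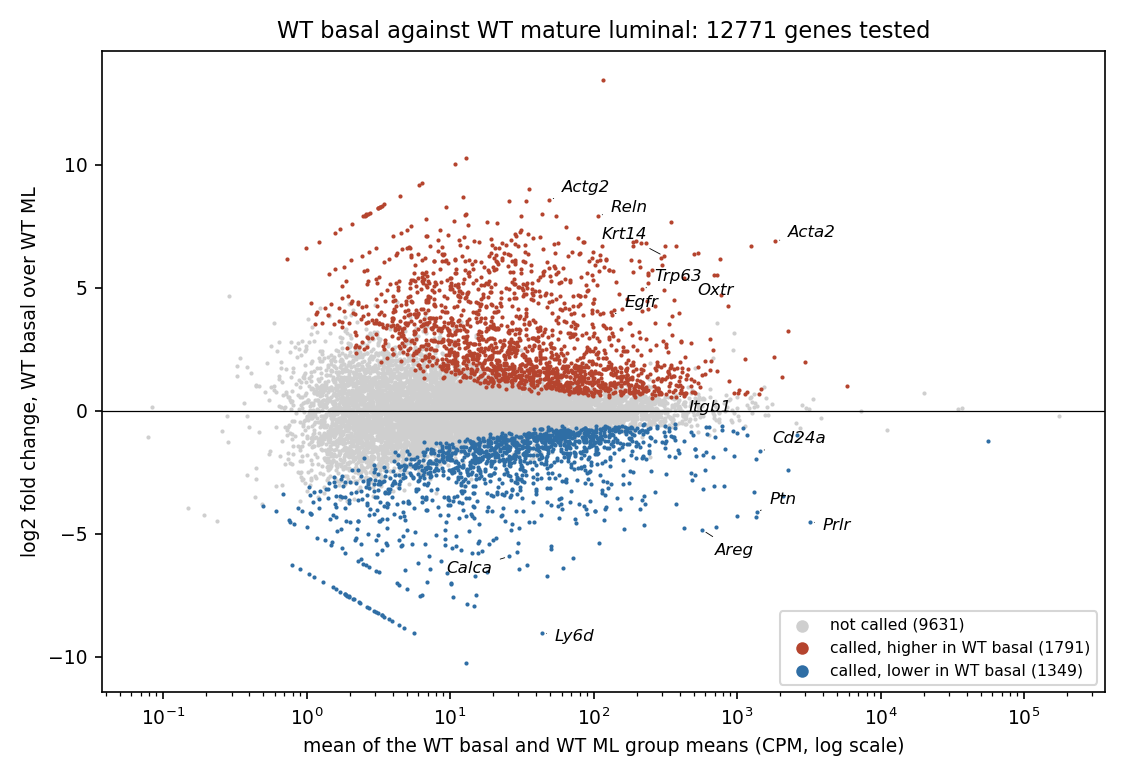
Each point is 1 of 12771 genes, with the mean of the basal and ML group means on the x axis (CPM, log scale) and the log2 fold change of WT basal over WT ML cells on the y axis. The 1791 genes called higher in basal cells are red, the 1349 called lower are blue and the others grey. Genes of contraction and matrix (Acta2, Actg2, Reln) lie in the upper part of the plot and Prlr, Areg and Ly6d in the lower part.

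The contractile apparatus was higher in basal cells in every gene tested. Of its 20 genes 19 were tested, all 19 were called higher in basal cells, and their median log2 fold change was 4.98, beside 0.01 over all tested genes. Pericytes also use contractile genes, and of 5 pericyte markers tested 3 were higher in basal cells and 1 lower, with values given among the markers of other cells. Only Des, the muscle intermediate filament desmin, had too few counts to be tested. Summed levels of the group were 18992, 10443, 11370 and 15228 CPM in basal libraries, against 487 to 682 CPM in ML libraries. Actg2, the enteric smooth muscle actin, had 126, 75.3, 42.03 and 149 CPM in WT basal, against 0, 0.172, 0.5895 and 0.287 CPM in WT ML libraries. Smooth muscle myosin heavy chain, Myh11, averaged 2465 ± 982 CPM in basal and 24.1 ± 11.4 CPM in ML cells (SD, n = 4 each; log2 fold change 6.68, SE 0.44, edgeR adjusted p = 6.39e-08). Its activating kinase Mylk followed it (log2 fold change 6.40, SE 0.38), as did the actin-binding calponin Cnn1 (6.86, SE 0.52), transgelin Tagln (5.67, SE 0.57) and the crosslinker Flna (4.25, SE 0.25). The smallest difference was that of Myl6, a light chain that nonmuscle myosin also uses, with 133, 135, 71.9 and 91.6 CPM in WT basal, against 47.4, 55.6, 38.7 and 46.9 CPM in WT ML libraries (log2 fold change 1.19, SE 0.25, edgeR adjusted p = 0.0024).

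The make-up of the actins differed. Per kilobase of the deposited gene length, the 6 actin genes came to 3299.6 ± 789 CPM in basal and 1028 ± 194 CPM in ML cells (SD, n = 4 each). Acta2 made up 62.4% of the actin total in basal cells, with libraries between 60.6% and 64.7%, and 1.71% in ML cells. The cytoplasmic actins Actb and Actg1 made up 24.1% and 11.4% in basal cells, against 53.8% and 44.5% in ML cells. Neither of the 2 cytoplasmic genes was called on its own level (log2 fold change 0.55, edgeR adjusted p = 0.0521, for Actb and -0.34, adjusted p = 0.455, for Actg1). Actb passed the threshold in 6 of 20 alternative settings, among them the replicate block in the 12 WT libraries (edgeR adjusted p = 0.0493), and Actg1 in replicates 3 and 4 alone (log2 fold change -1.08).

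Serum response factor (SRF), with its myocardin-family partners, binds CArG boxes in many smooth muscle genes. Because the contractile genes moved together, the 250 bases before each gene's start were searched for a CArG box, spelled CC, then 6 bases that are each A or T, then GG, a pattern that reads as the same motif on both strands. A box lay in 4 of the 16 called contractile genes with a promoter in the RefSeq table (25%), against 439 of 27025 genes in the whole table (1.62%), 34 of 1225 genes called higher in basal cells (2.78%), 10 of 982 called lower (1.02%) and 83 of 6770 not called (1.23%). Those 4 genes were Myl9, Cnn2, Vcl and Myl6, and for Myl6 another start in the RefSeq table had no box before it. The called genes Actg2, Myh11 and Tagln had no promoter in the RefSeq table. Spellings with a mismatch were not counted, so a gene without a box here, such as Acta2, is not shown to lack one. A match in these letters is a description and not a site shown to be bound. Because SRF binds in many smooth muscle genes, a larger share in this list can follow from the choice of its genes alone. The 3 boxes of the genes with the smallest p are shown in their windows, 5′ to 3′ on the plus strand of GRCm38.p6, from RefSeq, with the box in capitals. They begin 161, 56 and 227 bases before the start of the myosin light chain gene Myl9 (chr2:156775214-156775463), the calponin gene Cnn2 (chr10:79988350-79988599) and the vinculin gene Vcl (chr14:20929148-20929397).
Myl9: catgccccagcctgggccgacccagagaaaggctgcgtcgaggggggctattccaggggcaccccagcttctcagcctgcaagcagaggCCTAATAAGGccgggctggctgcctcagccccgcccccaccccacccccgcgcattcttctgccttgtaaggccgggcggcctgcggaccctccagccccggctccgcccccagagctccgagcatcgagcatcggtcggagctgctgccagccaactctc
Cnn2: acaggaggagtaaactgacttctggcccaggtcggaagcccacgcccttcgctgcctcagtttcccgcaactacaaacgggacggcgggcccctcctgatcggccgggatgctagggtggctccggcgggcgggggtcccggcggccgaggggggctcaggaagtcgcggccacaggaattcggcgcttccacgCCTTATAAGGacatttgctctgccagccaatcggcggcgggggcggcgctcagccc
Vcl: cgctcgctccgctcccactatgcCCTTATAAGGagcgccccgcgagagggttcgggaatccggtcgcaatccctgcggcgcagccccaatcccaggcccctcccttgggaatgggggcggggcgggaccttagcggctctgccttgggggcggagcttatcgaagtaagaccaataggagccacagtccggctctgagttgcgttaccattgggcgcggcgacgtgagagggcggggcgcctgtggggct

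The 3 genes differed in how far they moved. Myl9 had 274, 231, 152 and 224 CPM in WT basal, against 0.254, 4.996, 3.54 and 2.58 CPM in WT ML libraries (log2 fold change 6.30, SE 0.54). Cnn2 averaged 123 ± 32.3 CPM in basal and 13.97 ± 3.12 CPM in ML cells (log2 fold change 3.14, SE 0.32), and Vcl, an anchor of actin at adhesions that many cells use, 432 ± 86.4 and 119.6 ± 22.9 CPM (log2 fold change 1.85, SE 0.25; SD, n = 4 each for all 3 genes). All 3 were called by edgeR, with adjusted p of 1.12e-06, 4.28e-06 and 6.85e-05.

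Genes that trigger or tune contraction were higher in basal cells in 12 of 18 tested, none was lower, and their median log2 fold change was 1.71. Oxtr, the oxytocin receptor, had 1444, 621, 735 and 559 CPM in WT basal, against 7.88, 28.6, 22.99 and 21.95 CPM in WT ML libraries, and the groups did not overlap (log2 fold change 5.37, SE 0.45, edgeR adjusted p = 8.53e-07). Kcnmb1, the beta subunit that tunes the calcium-gated potassium channel of smooth muscle, had 28.96, 87.3, 49.03 and 41.7 CPM in WT basal, against 0, 0, 0.5895 and 0 CPM in WT ML libraries, 3 of them at 0 counts. Its pore subunit Kcnma1 was also higher (log2 fold change 4.62, SE 0.86), and so were the L-type calcium channel Cacna1c (6.79, SE 0.76) and Prkg1, the kinase of the relaxing cGMP pathway (4.39, SE 0.41). The upstream regulators used by most cell types were not called, among them the SRF partners Mkl1 and Mkl2 and the kinases Rock1 and Rock2, while Srf itself was higher (log2 fold change 1.35, SE 0.38, edgeR adjusted p = 0.0162). Srf lost its call without ML replicate 1 (edgeR adjusted p = 0.0541) or ML replicate 4 (edgeR adjusted p = 0.0556).

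Keratins separated the populations by type. Summed per kilobase, they came to 1325 ± 162 CPM in basal and 2413 ± 444 CPM in ML cells (SD, n = 4 each). In basal cells Krt14 made up 37.2% of the total, Krt5 20.3% and Krt17 10.5%, whereas in ML cells Krt19 made up 52.6%, Krt18 23.98% and Krt8 19.7%. The keratins of the basal list held 89.7%, 51.0%, 68.6% and 79.0% of the total in basal replicates 1 to 4, against 0.477% to 3.05% in ML libraries. WT basal replicate 2 was lowest on this share and highest on Krt18 and Krt19. On its own level Krt17 was higher in basal cells (log2 fold change 6.67, SE 0.72) and Krt8 lower (-2.61, SE 0.34). One member of each keratin list went the other way. Krt6a, a keratin of hair follicles and of some luminal cells, had 0, 0, 1.52 and 1.14 CPM in WT basal, against 7.25, 30.8, 27.5 and 65.9 CPM in WT ML libraries (log2 fold change -5.71, SE 1.30, edgeR adjusted p = 0.00416). Krt23, listed as luminal, was higher in basal cells (4.11, SE 1.00, edgeR adjusted p = 0.00653), with 55.02, 3.203, 11.3 and 24.4 CPM in basal and 1.91, 0.861, 0.983 and 1.58 CPM in ML libraries.

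All 12 tested transcription factors of the basal list were called, 11 of them higher in basal cells, with a median log2 fold change of 4.33. Tcf4, an E protein, had the smallest of these differences (log2 fold change 0.79, SE 0.26, edgeR adjusted p = 0.0354) and lost its call without basal replicate 1 or 4, without ML replicate 2, 3 or 4, with library totals, without the filter on low counts and with the 8 libraries alone, with or without the replicate block (edgeR adjusted p of 0.0549 to 0.131 in these settings). Trp63, which encodes p63, a factor that basal epithelia depend on, had 576, 451, 241 and 420.1 CPM in WT basal, against 3.81, 21.7, 25.9 and 4.305 CPM in WT ML libraries (log2 fold change 4.93, SE 0.76, edgeR adjusted p = 1.92e-04). Its level in ML replicates 2 and 3 was several times that in ML replicates 1 and 4, and Krt5 and Krt14 were also higher in ML replicates 2 and 3 than in ML replicate 1. For Krt14, however, ML replicate 4 lay above ML replicate 2. Mef2c, a muscle-associated factor, was higher in basal cells (log2 fold change 5.01, SE 0.56), as was Egr2 (4.12, SE 0.55). Id4, which inhibits basic helix-loop-helix factors, had 86.1, 13.4, 30.2 and 39.1 CPM in WT basal, against 0.254, 0.861, 1.38 and 0.287 CPM in WT ML libraries and was lowest among basal cells in replicate 2. Tcf12, one of the E proteins that ID proteins bind, was the 1 list member lower in basal cells (-0.97, SE 0.25, edgeR adjusted p = 0.0104).

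Among 16 tested luminal transcription factors, 9 were lower in basal cells, 1 was higher, and the median log2 fold change was -1.80. Esr1, the estrogen receptor, had 16.2, 40.8, 33.2 and 12.8 CPM in WT basal, against 337, 175, 209.9 and 179.8 CPM in WT ML libraries (log2 fold change -3.14, SE 0.39, edgeR adjusted p = 2.89e-05). Pgr, the progesterone receptor, averaged 32.7 ± 13.01 CPM in basal and 403 ± 111 CPM in ML cells (log2 fold change -3.63, SE 0.42), and Foxa1, a partner of the estrogen receptor, 9.24 ± 6.19 and 171 ± 34.1 CPM (-4.22, SE 0.55; SD, n = 4 each). Neither Esr1 nor Pgr was absent from basal libraries, where their lowest values were 12.8 and 21.02 CPM. Tfap2c, listed as luminal, was the exception and higher in basal cells, with 107, 55.3, 58.5 and 75.05 CPM in WT basal, against 6.36, 4.82, 11.004 and 9.04 CPM in WT ML libraries (log2 fold change 3.25, SE 0.36, edgeR adjusted p = 9.61e-06). The epithelial factors Grhl2 and Ovol1 were not called. Xbp1, a factor of secretory cells, was not called with all libraries (log2 fold change -1.05, edgeR adjusted p = 0.0698), was highest among basal cells in replicate 2 and was called lower without it (-1.79, edgeR adjusted p = 1.68e-04) and with the replicate block in the 12 WT libraries (-1.34, edgeR adjusted p = 0.00894). Elf3 and Ehf, both not called with all libraries, were also called lower without basal replicate 2 (-1.70 and -1.03).

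**Figure D2:**
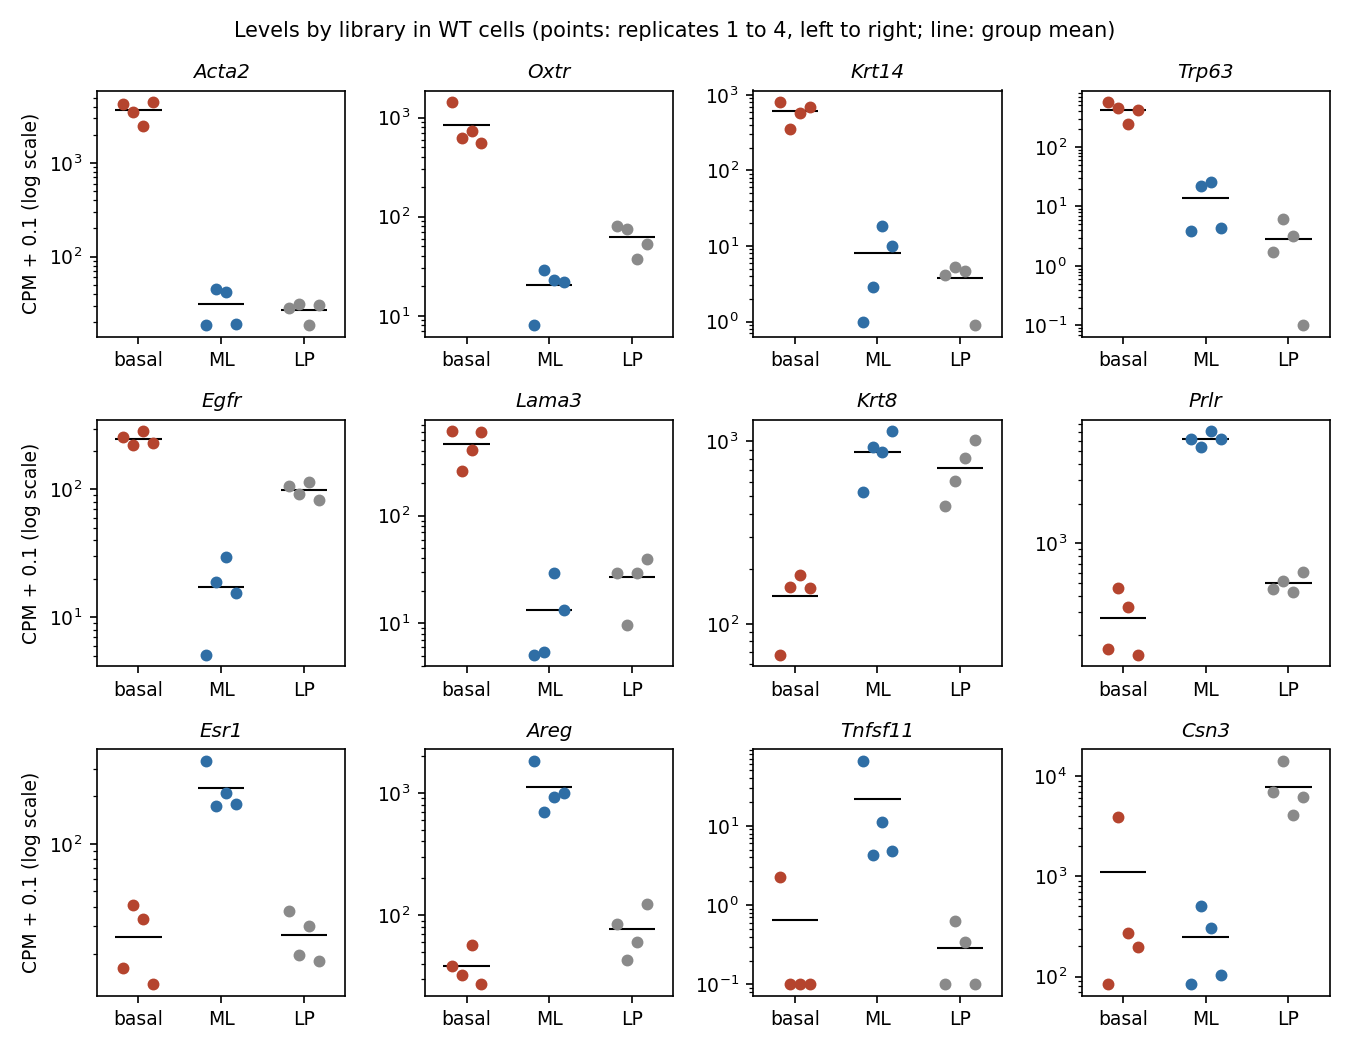
Levels of 12 genes in each WT library, as CPM plus 0.1 on a log axis, in basal, ML and LP cells. Points are replicates 1 to 4 from left to right and the line is the group mean. Basal and ML libraries do not overlap for any gene shown except Csn3, where basal replicate 2 reaches 3877 CPM.

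Of 22 basement membrane genes tested, 18 were higher in basal cells, with a median log2 fold change of 3.78, and 2 were lower, near the 10.6% over all tested genes. Col4a2, a chain of type IV collagen, had 719, 429, 471 and 888 CPM in WT basal, against 5.34, 5.34, 9.04 and 4.88 CPM in WT ML libraries (log2 fold change 6.68, SE 0.37, edgeR adjusted p = 3.53e-08). Hspg2, which encodes the proteoglycan perlecan, averaged 501 ± 202 CPM in basal and 9.496 ± 3.46 CPM in ML cells (SD, n = 4 each; log2 fold change 5.73, SE 0.36). Type IV collagen genes together, per kilobase, came to 231 ± 61.7 CPM in basal and 11.6 ± 3.90 CPM in ML cells. Most of that total was Col4a2 and Col4a1 in basal cells (41.8% and 29.7%, against 8.44% and 12.7% in ML cells), and Col4a5 made up 21.3% in basal and 65.5% in ML cells. The 2 members lower in basal cells were the integrin ligand Npnt, with 0.724, 14.2, 10.4 and 5.72 CPM in WT basal, against 39.3, 76.3, 56.4 and 49.9 CPM in WT ML libraries (log2 fold change -2.86, SE 0.57), and the laminin chain Lama5 (-0.83, SE 0.24, edgeR adjusted p = 0.0205). The call on Lama5 was lost without ML replicate 1, the highest ML library (log2 fold change -0.72, edgeR adjusted p = 0.0613).

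Laminins differed in composition as well as in amount. Laminin chains summed per kilobase to 462 ± 129 CPM in basal and 151 ± 43.0 CPM in ML cells (SD, n = 4 each). Of the alpha chains, Lama3 held 15.5% of the laminin total in basal and 1.48% in ML cells, Lama1 10.3% and 0.269%, and Lama5 6.06% and 33.2%. The gamma chain Lamc1, which most laminins share, held 33.6% in basal and 39.99% in ML cells. Lama1 had 529, 539.9, 216 and 411 CPM in WT basal, against 3.81, 2.07, 5.31 and 3.73 CPM in WT ML libraries, and Lama3 had 610.2, 259, 406 and 597 CPM in WT basal, against 4.96, 5.34, 28.9 and 13.2 CPM in WT ML libraries. Both were far above ML levels in each basal library (log2 fold change 6.83, SE 0.43, for Lama1 and 5.17, SE 0.59, for Lama3).

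Receptors for the matrix differed by less at the median than the matrix genes. Of 20 tested, 12 were higher in basal cells and none lower, with a median log2 fold change of 1.44, and 1 was lower without basal replicate 4 or with the replicate block in the 12 WT libraries. Col17a1, a transmembrane collagen of hemidesmosomes, had 395, 207, 261 and 256 CPM in WT basal, against 4.32, 4.82, 18.1 and 3.16 CPM in WT ML libraries (log2 fold change 5.22, SE 0.52, edgeR adjusted p = 3.79e-06). Integrin alpha chains per kilobase came to 443 ± 98.8 CPM in basal and 129 ± 20.1 CPM in ML cells (SD, n = 4 each). Itga6, which pairs with beta 4 in hemidesmosomes, was the largest part in both, 61.7% in basal and 53.1% in ML cells, and itself was higher in basal cells (log2 fold change 2.01, SE 0.25). Itga8 held 5.66% in basal and 1.11% in ML cells, and its level in LP cells averaged 181 ± 33.2 CPM, beside 138 ± 26.3 CPM in basal and 8.83 ± 6.19 CPM in ML cells (SD, n = 4 each).

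Genes for proteases of the matrix and their inhibitors were higher in basal cells in 16 of 23 tested and lower in 1, with a median log2 fold change of 3.16. Plau, the urokinase that activates plasminogen, had 69.5, 40.6, 17.7 and 23.9 CPM in WT basal, against 0.381, 0.345, 0.5895 and 0.4305 CPM in WT ML libraries (log2 fold change 6.39, SE 0.59, edgeR adjusted p = 2.06e-06). Timp3, an inhibitor of metalloproteinases, averaged 453 ± 129.6 CPM in basal and 20.7 ± 5.75 CPM in ML cells (SD, n = 4 each; log2 fold change 4.46, SE 0.50). The membrane protease Mmp15 was the 1 gene lower in basal cells, with 3.04, 19.6, 10.4 and 7.52 CPM in WT basal, against 108, 55.6, 50.9 and 46.5 CPM in WT ML libraries (log2 fold change -2.70, SE 0.53, edgeR adjusted p = 0.00154). Without basal replicate 1, or with the replicate block, 2 genes of the group were lower. YAP, TAZ and TEAD genes, which respond to stretch and adhesion, were higher in 6 of 12 tested and lower in 1. Their median log2 fold change was 1.07, and the number higher was 3 to 8 in the alternative settings. Over all tested genes 14% were higher and 10.6% lower, so the count lower is near that share. Axl, a receptor kinase that YAP can induce, had the largest difference of the list (6.08, SE 0.55), and the DNA-binding partner Tead1 was higher (2.81, SE 0.30). Tead2 was called lower (-1.77, SE 0.56, edgeR adjusted p = 0.0299), but the call was lost without basal replicate 4 or ML replicate 1, 2 or 4 and with the 8 libraries alone, where the edgeR adjusted p was 0.0771.

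**Figure D3:**
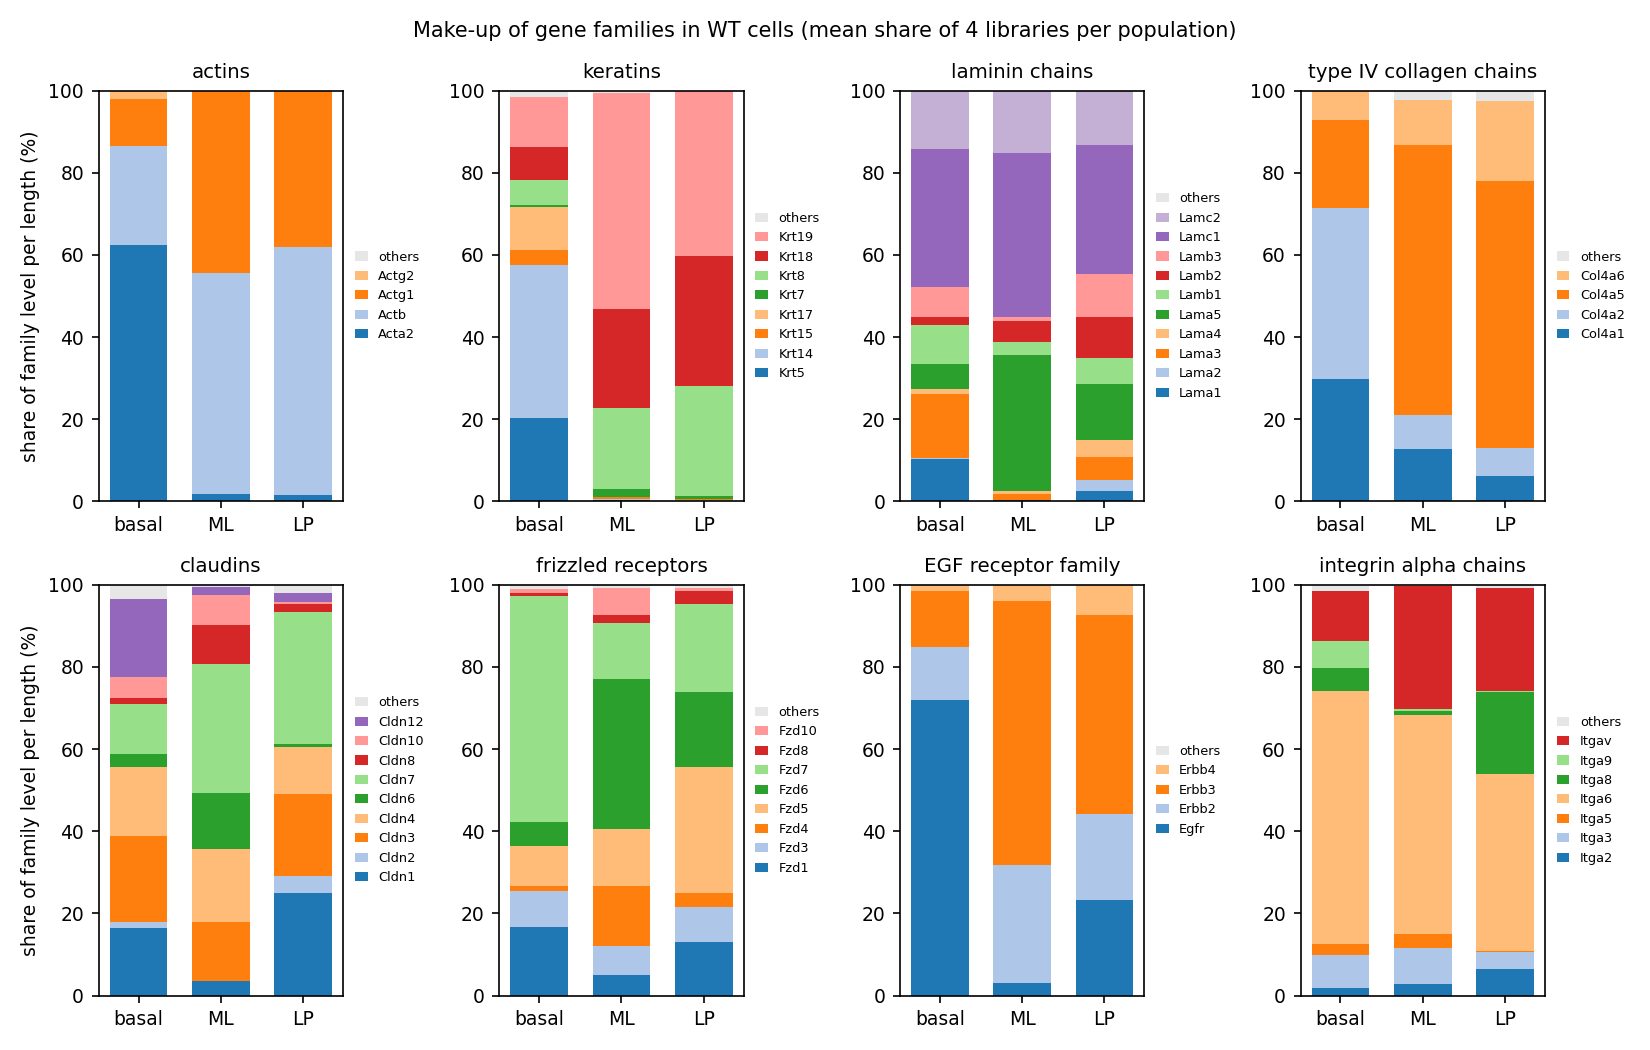
Mean share of each gene in the summed level per kilobase of its family, in WT basal, ML and LP cells (4 libraries each), for 8 families. Acta2 fills 62.4% of the actin bar in basal cells and 1.71% in ML cells, and Egfr fills 71.9% of the EGF receptor bar in basal cells and 3.12% in ML cells.

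Hormone response genes and the signals they control were lower in basal cells in 9 of 16 tested and higher in 2, with a median log2 fold change of -2.30. The group summed to 582 to 1024 CPM in basal libraries and 8054 to 10274 CPM in ML libraries. Prlr was the largest part of it in ML cells, and LP cells, at 499.7 ± 82.5 CPM (SD, n = 4), were nearer to basal than to ML cells for this gene. Areg, the EGF-like ligand that estrogen induces in mammary ducts, had 38.2, 32.2, 56.6 and 26.98 CPM in WT basal, against 1830.2, 699, 917 and 990.1 CPM in WT ML libraries (log2 fold change -4.85, SE 0.40, edgeR adjusted p = 8.52e-07). Tnfsf11, the progesterone-controlled ligand RANKL, had 2.17, 0, 0 and 0 CPM in WT basal, against 66.3, 4.13, 11.2 and 4.74 CPM in WT ML libraries, with ML replicate 1 far above the other 3 and 3 basal libraries at 0 counts (log2 fold change -5.10, SE 1.33, edgeR adjusted p = 0.0103). Without ML replicate 1 the call on Tnfsf11 was lost (log2 fold change -3.47, edgeR adjusted p = 0.0986). Wnt4, another progesterone-controlled ligand, had 0.579, 15.6, 9.14 and 7.19 CPM in WT basal, against 169, 95.8, 92.4 and 84.2 CPM in WT ML libraries and ML replicate 1 was again the highest (log2 fold change -3.78, SE 0.60). Igf1r, the receptor of insulin-like growth factors, was higher in basal cells, at 96.3 ± 20.8 CPM in basal and 6.0995 ± 3.32 CPM in ML cells (SD, n = 4 each; log2 fold change 3.98, SE 0.44), as was the prostaglandin synthase Ptgs2 (4.07, SE 0.66). Stat5a and Socs2, which act below the prolactin receptor, were not called in any of the 20 alternative settings.

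Ligands and receptors of the EGF family were called in both directions. Of 7 ligands tested, Areg and Btc were lower in basal cells and Nrg1 and Hbegf higher, with a median log2 fold change of -1.46. Of 10 receptors and inhibitors tested, 6 were higher and 2 lower, with a median of 1.55. Over all tested genes 14% were higher and 10.6% lower. Nrg1, a ligand of Erbb3 and Erbb4, had 38.2, 77.9, 31.7 and 129 CPM in WT basal, against 0.127, 1.72, 1.18 and 0.4305 CPM in WT ML libraries (log2 fold change 6.36, SE 0.86, edgeR adjusted p = 6.05e-05). Btc averaged 1.596 ± 0.971 CPM in basal and 17.8 ± 3.99 CPM in ML cells (SD, n = 4 each; log2 fold change -3.51, SE 0.62). For Hbegf the groups overlapped, with 54.4, 30.03, 146 and 142 CPM in WT basal, against 8.901, 23.1, 43.6 and 37.9 CPM in WT ML libraries, and its call (log2 fold change 1.72, edgeR adjusted p = 0.0342) was lost without basal replicate 3 or 4, without ML replicate 1, 2 or 4, and without the filter on low counts, with adjusted p up to 0.109. Egfr had 259, 224, 286 and 231 CPM in WT basal, against 4.96, 18.8, 29.5 and 15.4 CPM in WT ML libraries (log2 fold change 3.87, SE 0.39, edgeR adjusted p = 4.49e-06). Erbb3 and Erbb2 were lower in basal cells (log2 fold change -2.98, SE 0.33, and -1.94, SE 0.30). Per kilobase Egfr made up 71.9% of the 4 receptors in basal and 3.12% in ML cells, and Erbb3 13.6% and 64.3%. The EGF receptor inhibitor Errfi1 was also higher in basal cells, at 2951 ± 549 CPM in basal and 645 ± 262 CPM in ML cells (SD, n = 4 each; log2 fold change 2.19, SE 0.34).

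Only 6 of the 16 Wnt and R-spondin genes in the table had enough counts to be tested, and 2 of them, Wnt4 and Wnt5a, were lower in basal cells. Leaving out basal replicate 2 let 10 genes be tested, of which 3 were lower and 4 higher, and the median log2 fold change of the ligands, -0.70, lay between -2.34 and 1.27 over the alternative settings. Wnt5a had 80.9, 36.2, 22.5 and 41.7 CPM in WT basal, against 131, 267, 165 and 306 CPM in WT ML libraries (log2 fold change -2.25, SE 0.48, edgeR adjusted p = 0.00272). Of 19 receptors tested, 8 were higher in basal cells and 2, Fzd4 and Fzd6, lower, the latter near the 10.6% over all tested genes. Lgr5 and Lgr6, receptors of R-spondins, belonged to the first group. Lgr5 had 140.4, 70.5, 125 and 91.6 CPM in WT basal, against 0.254, 0, 4.13 and 0.861 CPM in WT ML libraries (log2 fold change 6.42, SE 0.84, edgeR adjusted p = 4.04e-05). Lgr6 averaged 264 ± 53.5 CPM in basal, 15.7 ± 9.42 CPM in ML and 118 ± 31.3 CPM in LP cells (SD, n = 4 each; log2 fold change of basal over ML 4.08, SE 0.41). Frizzled genes per kilobase were 55.1% Fzd7 in basal and 13.7% in ML cells, while Fzd6 held 5.82% and 36.4%. Of 11 targets and inhibitors tested, 7 were higher and none lower, with a median log2 fold change of 2.66. Wif1, a secreted inhibitor that binds Wnt proteins, had 85.7, 52.05, 46.3 and 117 CPM in WT basal, against 0, 0.517, 0.983 and 0.861 CPM in WT ML libraries (log2 fold change 7.01, SE 0.74, edgeR adjusted p = 6.37e-06), and Nkd2, an inhibitor inside the cell, was also higher (6.41, SE 0.82). Axin2, a widely used Wnt target, had 25.3, 0.601, 3.65 and 17.3 CPM in WT basal, against 1.14, 3.62, 1.97 and 1.43 CPM in WT ML libraries and was not called (log2 fold change 2.53, SE 0.90, edgeR adjusted p = 0.0524). It was called in 6 of 20 alternative settings, among them without basal replicate 2, its lowest basal library (2.92, edgeR adjusted p = 0.00538).

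Notch ligands were higher in basal cells in 2 of 3 tested. Dll1 had 111, 75.7, 116 and 115 CPM in WT basal, against 0.509, 0.345, 2.55 and 0.574 CPM in WT ML libraries (log2 fold change 6.76, SE 0.60, edgeR adjusted p = 1.45e-06). Jag2 averaged 48.6 ± 28.2 CPM in basal and 0.446 ± 0.245 CPM in ML cells (SD, n = 4 each; log2 fold change 6.74, SE 0.86). Of 12 receptors and targets tested, 3 were higher and 2 lower, with a median log2 fold change of 0.30, and 1 was higher without basal replicate 2 or ML replicate 1 or 4. Over all tested genes 14% were higher and 10.6% lower. Notch3, a receptor, had 4.34, 59.3, 20.7 and 17.8 CPM in WT basal, against 162, 144, 76.6 and 71.2 CPM in WT ML libraries, and basal replicate 2 lay nearest to ML cells (log2 fold change -2.16, SE 0.54, edgeR adjusted p = 0.00776; without that library -3.03). The target Hes1 was also lower (-1.21, SE 0.32, edgeR adjusted p = 0.0119), a call lost without ML replicate 2 (adjusted p = 0.054) and with the replicate number as a block in the 8 libraries (adjusted p = 0.0693). The call on the target Hey2 rested on basal replicate 2, with 0, 23.02, 0.305 and 0.491 CPM in WT basal, against 0, 0, 0.5895 and 0 CPM in WT ML libraries, and without that library the log2 fold change was 0.88, against 5.33 with it (edgeR adjusted p = 0.688, against 0.0358). It was lost too with the replicate block in the 12 WT libraries (edgeR adjusted p = 0.255), and without ML replicate 1, 2 or 4.

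In the TGF-beta and BMP family, 8 of 18 ligands and traps tested were higher in basal cells and 2 lower, and 6 of 19 receptors and targets were higher and 2 lower, or 1 lower without ML replicate 3. Over all tested genes 14% were higher and 10.6% lower, so both counts of lower genes are near that share. Fstl1, a secreted follistatin-like protein, had 616, 430.2, 432 and 359 CPM in WT basal, against 4.45, 5.17, 3.34 and 3.44 CPM in WT ML libraries (log2 fold change 6.80, SE 0.65, edgeR adjusted p = 2.82e-06). Tgfbr3, a co-receptor that binds several ligands of the family, had 867, 323, 448 and 723 CPM in WT basal, against 11.3, 5.69, 15.1 and 7.32 CPM in WT ML libraries (log2 fold change 5.91, SE 0.39). The signalling receptor Tgfbr2 was lower in basal cells, at 43.4 ± 4.95 CPM in basal and 135 ± 43.4 CPM in ML cells (SD, n = 4 each; log2 fold change -1.63, SE 0.29). Bmp3 was lower as well (-3.54, SE 0.80), with 6.23, 15.01, 71.3 and 1.96 CPM in basal and 182, 200.01, 457 and 231 CPM in ML libraries. So was Inhba, an activin subunit (-3.26, SE 0.98, edgeR adjusted p = 0.0232), whose call was lost without ML replicate 2 (adjusted p = 0.119), its highest library, with the 8 libraries alone and with the replicate block in them (adjusted p = 0.0751).

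Genes first named for axon guidance encode surface and secreted signals. Of 22 ligands tested, 13 were higher in basal cells and 2 lower, with a median log2 fold change of 2.63, and of 22 receptors 13 were higher and none lower, with a median of 1.67. The share of ligands called lower was near the 10.6% over all tested genes. Sema5a, a transmembrane semaphorin, had 328, 251, 201 and 185 CPM in WT basal, against 0.763, 3.45, 6.29 and 3.16 CPM in WT ML libraries (log2 fold change 6.17, SE 0.50, edgeR adjusted p = 6.19e-07). Slit2, which its receptors of the Robo family read as a repellent, had 127, 46.04, 42.03 and 115 CPM in WT basal, against 1.65, 1.895, 1.97 and 2.01 CPM in WT ML libraries (log2 fold change 5.44, SE 0.52). Of the receptors, Epha4 had 101, 91.3, 93.2 and 152 CPM in WT basal, against 1.65, 8.61, 10.02 and 5.17 CPM in WT ML libraries (4.12, SE 0.47) and Plxna4, a plexin, averaged 39.7 ± 17.8 CPM in basal and 0.779 ± 0.851 CPM in ML cells (5.72, SE 0.85). Libraries of the 2 populations did not overlap for any of these 4 genes. The 2 ligands lower in basal cells were Sema4d and Efna1 (-1.41 and -1.66, edgeR adjusted p = 0.026 and 0.0308). The call on Sema4d was lost without basal replicate 3 or 4 or ML replicate 1, and that on Efna1 without basal replicate 3 or ML replicate 2, 3 or 4. With the 8 libraries alone the edgeR adjusted p was 0.0621 for Sema4d and 0.0875 for Efna1, and with the replicate block in them 0.111 for Efna1.

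Genes of the tight junction list were called only lower in basal cells and gap junction genes only higher, while cadherin and desmosome genes went both ways. Of 21 tested genes in the list of tight junctions and apical polarity, 11 were lower in basal cells and none higher, with a median log2 fold change of -1.55. Cldn2, a claudin placed in the LP marker list and not in this one, was called higher (log2 fold change 6.59, SE 1.85, edgeR adjusted p = 0.0203). It came to 1.47 ± 2.47 CPM per kilobase in basal cells, 0 in ML cells and 11.5 ± 5.76 in LP cells (SD, n = 4 each). The SD in basal cells exceeded the mean, so the basal libraries were uneven for Cldn2. Its value without basal replicate 2, the library with the most LP markers, is not given here. Cldn8, a claudin, had 2.61, 1.401, 0.609 and 0.654 CPM in WT basal, against 106, 31.7, 56.8 and 37.7 CPM in WT ML libraries (log2 fold change -5.38, SE 0.57, edgeR adjusted p = 6.78e-06), and occludin, Ocln, averaged 7.5997 ± 3.38 CPM in basal and 57.5 ± 22.3 CPM in ML cells (SD, n = 4 each; -2.90, SE 0.38). Claudins per kilobase came to 58.5 ± 41.8 CPM in basal and 256 ± 20.6 CPM in ML cells. Of 16 cadherin and desmosome genes tested, 5 were higher in basal cells and 3 lower, beside 14% and 10.6% over all tested genes. Their median log2 fold change was 0.23 and lay between -0.02 and 0.49 in the alternative settings. The cadherin genes Cdh3 and Cdh1 differed in opposite directions, and Cdh1 transcripts were still present in basal cells. Cdh3, P-cadherin, had 342, 92.3, 166 and 111 CPM in WT basal, against 4.705, 5.69, 4.32 and 0 CPM in WT ML libraries (log2 fold change 5.60, SE 0.78, edgeR adjusted p = 8.02e-05), while Cdh1, E-cadherin, was lower in basal cells, at 252 ± 104 CPM in basal and 599 ± 48.6 CPM in ML cells (SD, n = 4 each; -1.25, SE 0.27, edgeR adjusted p = 0.00267). The catenins that link both to actin, Ctnnb1 and Ctnna1, were not called. The desmosome genes Perp and Pkp2 went opposite ways (1.66, SE 0.29, and -2.82, SE 0.69). Of 7 gap junction genes tested, 4 were higher in basal cells, and 2 without basal replicate 3 or 4 or ML replicate 2. Gja1, connexin 43, had 344, 159.7, 202 and 285 CPM in WT basal, against 10.9, 33.6, 9.43 and 7.75 CPM in WT ML libraries (log2 fold change 4.01, SE 0.45, edgeR adjusted p = 1.07e-05).

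Apical transport genes were lower in basal cells in 4 of 16 tested and higher in 1, beside 10.6% lower and 14% higher over all tested genes. Slc12a2, a sodium, potassium and chloride cotransporter, had 84.7, 119, 157 and 162 CPM in WT basal, against 1100.3, 2416, 1476 and 5408 CPM in WT ML libraries (log2 fold change -4.32, SE 0.52, edgeR adjusted p = 1.89e-05). The water channel Aqp5 had 0, 0, 3.05 and 0.327 CPM in WT basal, against 63.3, 78.7, 26.1 and 69.7 CPM in WT ML libraries (-6.45, SE 0.89). The 1 gene higher, the phosphate transporter Slc34a2, had 4.34, 80.3, 4.57 and 1.47 CPM in WT basal, against 0.509, 3.101, 2.55 and 2.296 CPM in WT ML libraries and rested on basal replicate 2. Without it the log2 fold change was 0.70, against 3.43 with it (edgeR adjusted p = 0.44, against 0.0236), and 6 genes of the group were lower and none higher. Slc34a2 also lost its call with the replicate block (edgeR adjusted p = 0.0616 in 12 and 0.183 in 8 libraries) and without ML replicate 1 or 4. Of 14 genes of milk protein and milk fat, 1 was called, Xdh, a dehydrogenase of milk fat secretion, with 16.6, 141, 23.8 and 18.1 CPM in WT basal, against 10.8, 14.99, 18.5 and 9.901 CPM in WT ML libraries. Its call was lost without basal replicate 2 (log2 fold change 0.51, against 1.89 with it, edgeR adjusted p = 0.221, against 0.0268), without ML replicate 1, 2 or 4 and with the replicate block in the 8 libraries (adjusted p = 0.135). The median log2 fold change of the milk genes was 1.91 with and -0.81 without basal replicate 2.

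**Figure D4:**
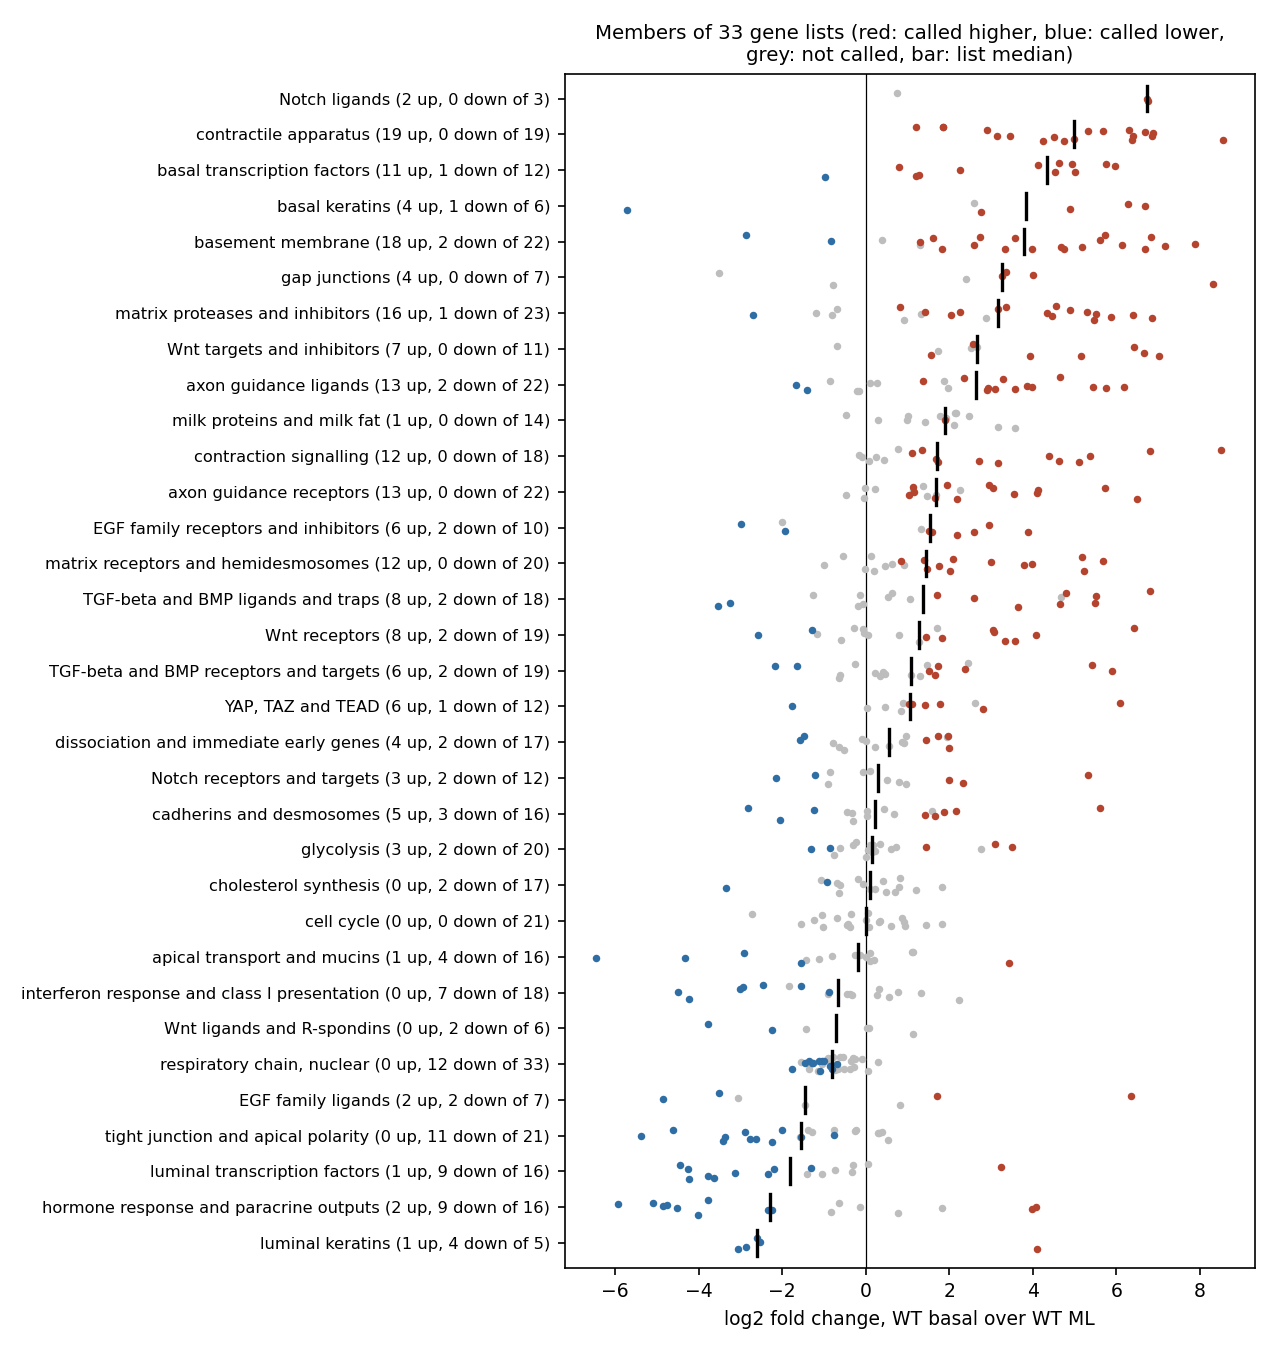
Log2 fold change of WT basal over WT ML cells (x axis) for the tested members of 33 gene lists, 1 row a list, with the numbers called higher and lower. Points are genes, red where called higher, blue where called lower and grey where not called, and the bar is the list median. The contractile apparatus has all 19 points above 0, and the tight junction list, which does not hold Cldn2, has no red point.

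Of 33 nuclear genes of the respiratory chain, 12 were lower in basal cells and none higher, with a median log2 fold change of -0.80. The number lower was 4 without basal replicate 3 or ML replicate 1, 6 without ML replicate 2, 5 without ML replicate 4 and 1 with replicates 1 and 2 alone. Atp5c1, a subunit of ATP synthase, had 99.8, 64.3, 46.6 and 82.7 CPM in WT basal, against 199, 215, 178 and 211 CPM in WT ML libraries (log2 fold change -1.45, SE 0.24, edgeR adjusted p = 3.94e-04). Mitochondrial ribosomal RNA took 15.3% to 26.2% of counts in basal and 17.7% to 34.4% in ML libraries, and leaving out mitochondrial genes gave 3145 calls. In glycolysis, 3 of 20 genes were higher in basal cells and 2 lower, near the 14% and 10.6% over all tested genes. The counts were 5 and 4 without basal replicate 2, and none was lower without basal replicate 1 or ML replicate 1 or 2. Ldhb, the heart-type lactate dehydrogenase subunit, had 103, 68.1, 40.5 and 51.3 CPM in WT basal, against 6.36, 5.69, 6.09 and 4.88 CPM in WT ML libraries (log2 fold change 3.51, SE 0.32, edgeR adjusted p = 2.16e-06), and LP cells, at 69.3 ± 9.94 CPM (SD, n = 4), were close to basal cells. Of 17 genes of cholesterol synthesis, 2 were lower in basal cells and none higher, a share lower that is also near the 10.6% over all tested genes. The number lower was 1 without basal replicate 2, or basal replicate 4, or ML replicate 2, 3 or 4, and 2 were higher without basal replicate 2.

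Genes of the interferon response and of class I antigen presentation were lower in basal cells in 7 of 18 tested and none was higher, with a median log2 fold change of -0.67, and 1 was higher without basal replicate 2 or ML replicate 4. B2m, the light chain of class I molecules, had 173, 412, 252 and 205 CPM in WT basal, against 867, 529.6, 966 and 686 CPM in WT ML libraries (log2 fold change -1.55, SE 0.27, edgeR adjusted p = 6.11e-04), and Tap2, a peptide transporter, was lower too (-3.02, SE 0.53). Of 17 genes that tissue dissociation can induce, 4 were higher in basal cells and 2 lower, and 7 higher with the replicate block. The share lower was near the 10.6% over all tested genes. Egr1, an immediate early factor, had 6444, 7359.5, 2498 and 2718 CPM in WT basal, against 1400.04, 1420.2, 1069.8 and 953 CPM in WT ML libraries (log2 fold change 1.97, SE 0.40, edgeR adjusted p = 0.00193), and Atf3, a stress-induced factor, had 485, 564, 312 and 299 CPM in WT basal, against 994, 1223, 1293 and 1416 CPM in WT ML libraries (-1.57, SE 0.31, edgeR adjusted p = 0.00154). Fos, the best known of these genes, was not called. None of 21 cell cycle genes tested was called by edgeR, and their median log2 fold change was 0.00, while 1 was lower without basal replicate 1 or 2.

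Several of the genes with the largest differences fall outside these groups. Tril, which encodes a modulator of toll-like receptor signalling, had 132, 21.8, 57.3 and 73.1 CPM in WT basal, against 0, 0, 0.197 and 0.287 CPM in WT ML libraries (log2 fold change 9.01, SE 1.06, edgeR adjusted p = 1.64e-05). Reln, the secreted matrix protein reelin, had 189.7, 242, 158 and 269.8 CPM in WT basal, against 0, 0.345, 2.75 and 0.717 CPM in WT ML libraries (7.91, SE 0.82). Aebp1, a secreted protein that binds collagen, had 192, 52.4, 66.4 and 127 CPM in WT basal, against 0.381, 0, 0.983 and 0.4305 CPM in WT ML libraries (7.92, SE 0.87). Mrvi1, a target of the cGMP-dependent kinase in smooth muscle, averaged 87.2 ± 41.4 CPM in basal and 0.349 ± 0.378 CPM in ML cells (SD, n = 4 each; 7.99, SE 0.86). On the other side, Pls1, an actin bundler of microvilli, had 0, 0.2002, 0.305 and 0.164 CPM in WT basal, against 39.4, 33.8, 18.7 and 29.6 CPM in WT ML libraries (-7.50, SE 0.72, edgeR adjusted p = 2.96e-06). Itih2, a secreted protein that binds hyaluronan, had 1.59, 1.001, 0.609 and 0.164 CPM in WT basal, against 81.4, 153, 49.5 and 94.8 CPM in WT ML libraries (-6.73, SE 0.67), and Cntnap2, a neurexin-like adhesion protein, had 0.145, 0, 0 and 0.164 CPM in WT basal, against 30.01, 31.5, 8.84 and 13.6 CPM in WT ML libraries (-7.56, SE 0.88). Among abundant genes per length, the secreted growth factor Ptn was lower in basal cells, at 148 ± 24.6 CPM in basal and 2590.4 ± 1124 CPM in ML cells (-4.13, SE 0.47), and so was the sialomucin Cd164 (-3.49, SE 0.33).

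In all, 25 called genes had 0 counts in each ML library and 32 had 0 counts in each basal library. Against a group at 0, the fold was set against 3 counts over the 4 libraries, 0.117 CPM for ML and 0.141 CPM for basal cells. By that bound Cyp2j9, a cytochrome P450 of the arachidonic acid epoxygenase family, with 12.02, 53.8, 17.7 and 2.78 CPM in basal libraries, was at least 185-fold higher in basal cells, or at least 92.8-fold without basal replicate 2, its highest library. The gap junction gene Gjc1, with 8.54, 0, 11.3 and 6.87 CPM, was at least 57.2-fold higher, although basal replicate 2 also had 0 counts. In the other direction the potassium channel subunit Kcns3, with 3.69, 6.72, 10.02 and 15.1 CPM in ML libraries, was at least 63.01-fold lower in basal cells. The symbol Dst stands at 3 identifiers in the table, and because reads can be divided among them the 1 with 0 counts in ML libraries is left as uncertain.

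Markers of other cells were low, with exceptions in both directions. Of 7 Schwann cell markers 3 could be tested, with a median log2 fold change of 4.55. Scn7a and Ngfr were called higher in basal cells and Mbp was not called, and 1 to 3 were higher in the alternative settings. Scn7a, a sodium channel gene, had 1047, 560.1, 845 and 526 CPM in WT basal, against 2.92, 4.48, 16.7 and 5.45 CPM in WT ML libraries (log2 fold change 6.68, SE 0.56, edgeR adjusted p = 8.84e-07). The list summed to 561 to 1098 CPM in basal and 36.7 to 63.1 CPM in ML libraries, nearly all of it Scn7a in basal cells. The 9 fibroblast markers summed to 101 to 252 CPM in basal and 152 to 1058 CPM in ML libraries. Dcn, the matrix proteoglycan decorin, was most of that sum, with 59.4, 163, 74.01 and 73.7 CPM in WT basal, against 613, 133, 1047 and 409 CPM in WT ML libraries, and was lower in basal cells (-2.57, SE 0.58, edgeR adjusted p = 0.00384), while 3 of the 6 fibroblast markers tested, the fibrillar collagen genes Col1a1, Col1a2 and Col3a1, were higher (3.31, 2.11 and 1.67). The median log2 fold change of the 6 was 2.17 and 5 lay above 0. The number higher was 1 without basal replicate 1, without ML replicate 1 or 3 and with the 8 libraries alone, and 5 under DESeq2. Pericyte markers summed to 76.1 to 138 CPM in basal and 85.1 to 176 CPM in ML libraries, and these sums joined opposite differences. Of 5 tested, Mcam, Cspg4 and Pdgfrb were higher in basal cells, Notch3 was lower, and the median log2 fold change was 3.38. Mcam, an adhesion protein, averaged 36.7 ± 13.7 CPM in basal and 3.54 ± 2.19 CPM in ML cells (SD, n = 4 each; log2 fold change 3.38, SE 0.59, edgeR adjusted p = 5.18e-04). Cspg4 and Pdgfrb averaged 7.8997 ± 4.75 and 7.31 ± 6.77 CPM in basal and 0.704 ± 0.703 and 0.562 ± 0.489 CPM in ML cells (SD, n = 4 each), and only 1 marker was higher without ML replicate 3 or 4. Kcnj8, a potassium channel gene of that list, was at 0 counts in each basal library. Endothelial markers summed to 40.7 to 126 CPM in basal and 24.2 to 29.6 CPM in ML libraries. No endothelial marker was called by edgeR, and 1 was higher when any basal or ML library but basal replicate 3 or 4 was left out. Of 3 immune markers tested, Lyz2 was called higher in basal cells, where it averaged 21.1 ± 31.7 CPM (SD, n = 4). All 10 immune markers together came to 146 CPM in basal replicate 2 and at most 16.4 CPM in any other basal library. Basal replicate 2 was therefore the highest for Lyz2, and its value without that library is not given here. Csf1r and Cd68 were not called, and 0 to 2 immune markers were higher in the alternative settings. Adipocyte markers summed to at most 18.9 CPM in basal and 10.5 CPM in ML libraries, with 5 of 7 at 0 counts in each group, and erythroid markers to at most 1.88 and 6.89 CPM. Of 15 LP markers, 5 were called higher in basal cells, among them Itgb3 and Sox10 (log2 fold change 2.78, SE 0.44), and 2 higher and 1 lower without basal replicate 2, or 3 higher without ML replicate 1 or 4. The part of other cells in the results was not tested.

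The same contrast in KO mice used no library of the WT contrast. Id4, the targeted gene, averaged 6.098 ± 5.83 CPM in KO basal and 0.232 ± 0.464 CPM in KO ML cells, beside 42.2 ± 31.2 CPM in WT basal and 0.695 ± 0.533 CPM in WT ML cells (SD, n = 4 each). Of 12711 genes tested there, 2463 (19.4%) were called, 1508 (11.9%) higher and 955 (7.51%) lower in KO basal than in KO ML cells. Among the 3021 WT calls that were also tested in KO cells, 2909 (96.3%) had the same sign, 1697 (56.2%) were called in the same direction and 0 in the opposite one. These 1697 were 71.8% of the 2364 KO calls that had been tested in WT cells. Of the 9253 genes not called in WT cells, 69.1% had the same sign in KO cells. For Acta2 the log2 fold change was 7.92 in KO and 6.88 in WT cells, and for Oxtr 5.98 in KO and 5.37 in WT cells. For Prlr it was -4.80 in KO and -4.52 in WT cells, and for Esr1 -4.76 in KO and -3.14 in WT cells. For Egfr it was 3.46 in KO and 3.87 in WT cells, and for Reln 6.27 in KO and 7.91 in WT cells. All 6 genes were called in both genotypes.

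**Figure D5:**
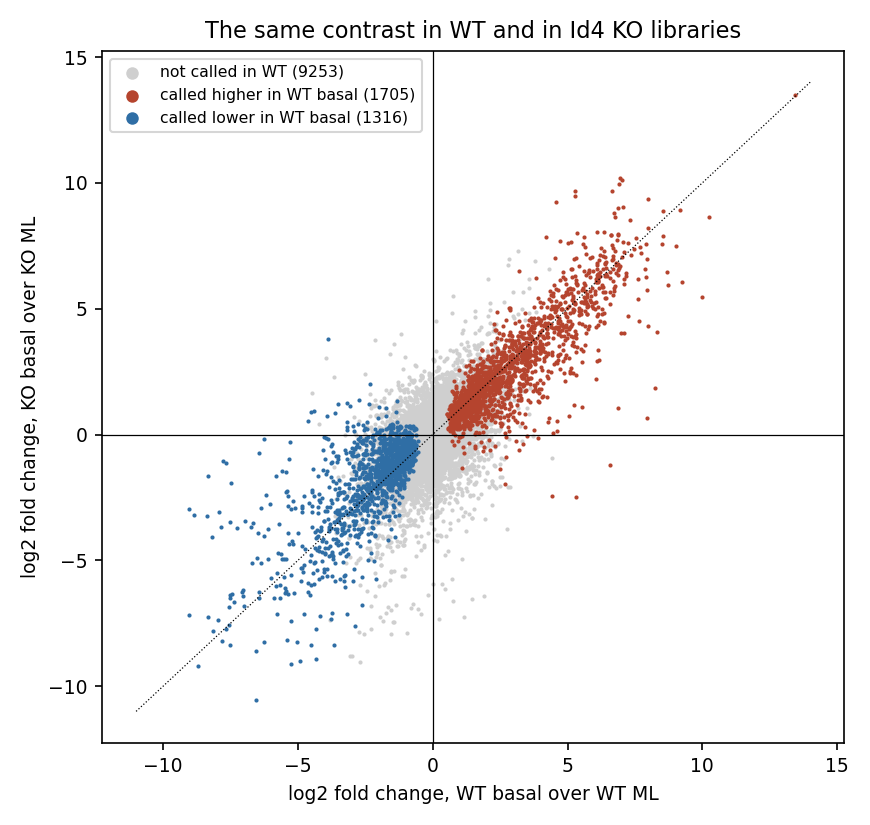
Log2 fold change of basal over ML cells in WT mice (x axis) against that in KO mice (y axis) for the genes tested in both. The 1705 genes called higher in WT basal cells are red, the 1316 called lower blue and the 9253 not called grey. Of the coloured points, 96.3% have the same sign on both axes.

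Whether the contrast itself depended on genotype was tested as an interaction over all 24 libraries. Of 14082 genes tested, none was called by edgeR (0%), 970 had an unadjusted p under 0.05, and limma voom called 1. The smallest edgeR adjusted p was 0.124, for Id3, another inhibitor of basic helix-loop-helix factors, which averaged 90.5 CPM in KO basal and 13.7 CPM in KO ML cells, beside 14.1 CPM in WT basal and 21.6 CPM in WT ML cells. A p that misses the threshold does not show that the genotypes are alike.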

How the data were processed

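RNA from sorted WT and KO mammary cells was sequenced in 24 libraries, of which 8 make up the WT contrast. The authors deposited unnormalized expected counts, a column for each library, per the file headers. Cutadapt, STAR, RSEM and the mm10 build are named, without roles, by the submitters' processing notes. Versions and settings are not given there. Of 24007 genes in the table, 25 had no symbol. The share of values that were not whole was 2.86% to 5.25% per library, and expected counts were rounded. Gene length was used only for levels per kilobase. Positions came from GENCODE M21 on GRCm38, which held 23780 identifiers (99.05%), and promoter sequences from RefSeq.

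The 12 WT libraries were fitted with edgeR 4.0.16 in R 4.3.3 (filterByExpr, TMM, robust quasi-likelihood, two-sided test, Benjamini-Hochberg adjustment over all genes tested, threshold 0.05), with WT basal minus WT ML as the contrast. The KO contrast used the 12 KO libraries and the difference between genotypes all 24. Alternatives used DESeq2 1.42.0, limma 3.58.1, other scalings and filters, the 8 libraries alone, a replicate block, split replicates and leaving out each basal or ML library. On simulated counts for 12771 genes, edgeR recovered 3 of 67 genes changed 2-fold (4.48%), 29 of 67 changed 4-fold (43.3%) and 50 of 66 changed 8-fold (75.8%), with 2 false calls. The changed genes were a far smaller share than the 24.6% called in the data, which makes the adjusted threshold stricter in the simulation.

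The populations of a replicate were sorted from 1 pool of mice, per the series' design text, so same-numbered libraries share a source. The fit behind every printed value had no replicate block unless the block is named. Deviations from group means of same-numbered basal and ML libraries correlated at 0.107, 0.116, 0.193 and 0.063 over genes for numbers 1 to 4, and those of the other 12 pairs at -0.127 to 0.102. Replicates are biological, per the labels. For the WT contrast, p-values measure the spread between libraries within a population, estimated jointly over the 12 WT libraries. The fit without a block treats libraries of 1 pool as independent. Its joint estimate covers populations of unlike spread (median SD of log2 CPM 0.82 in basal, 0.44 in ML and 0.47 in LP cells). With the 8 libraries alone 2414 genes were called, and 2345 with the replicate block in them. No pair of libraries agreed within sampling noise (smallest chi-square per degree of freedom 18.95).

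Gene lists (33 of pathways, 8 of markers, 11 families; 659 of 667 symbols matched) and the 3 markers of the comparison were chosen with earlier results of these data known. Named genes are the 10 largest called changes in each direction with separated groups and a mean of at least 20 CPM, the 5 most abundant genes at 0 in the other group, up to 4 called members of each list, the sort genes, family members and abundant genes. Further list members of known role, such as Trp63, Myh11, Mylk, Cnn1, Tagln, Foxa1, Lgr5, Axin2, Tnfsf11, Xbp1 and Sox10, were named after their values were seen. A few genes that these rules name are not reported here.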

Additional observations from a re-analysis of the deposited data

Results flagged for a closer look

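In 28 of 284 groups of 4 libraries examined, 1 library lay farther from the other 3 than Dixon's limit for 4 values allows. For independent values with a normal distribution that limit flags about 1 in 20 groups. CPM need not be normal, and sums share genes with single items, so that rate does not measure chance here. Of the 28, 13 were WT basal replicate 2. Among WT basal libraries, replicate 2 was highest in the summed markers of luminal progenitors (6144 CPM, others 509 to 898 CPM), fibroblasts (252 CPM, others 101 to 120.0 CPM) and immune cells (146 CPM, others 10.3 to 16.4 CPM) and in milk genes (25121 CPM, others 462 to 1191 CPM). It was also highest for Csn3 (3877 CPM, others 85.0 to 274 CPM), Xdh (141 CPM, others 16.6 to 23.8 CPM), Xbp1 (122 CPM, others 30.5 to 34.7 CPM), Dcn (163 CPM, others 59.4 to 74.0 CPM), Slc34a2 (80.3 CPM, others 1.47 to 4.57 CPM) and Hey2 (23.0 CPM, others 0 to 0.491 CPM). It was lowest for Lama5 (109.5 CPM, others 180 to 187 CPM), Ctnna1 (195 CPM, others 367 to 390.3 CPM) and Dll1 (75.7 CPM, others 111 to 116 CPM).

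In other WT basal libraries, replicate 1 was highest for Mylk (1517 CPM, others 869 to 951 CPM), Fzd7 (646 CPM, others 209 to 226 CPM) and Perp (387 CPM, others 199 to 227 CPM), replicate 4 highest for Epha4 (152 CPM, others 91.3 to 101 CPM) and replicate 3 lowest for Lgr6 (184 CPM, others 285 to 298 CPM). In WT ML libraries, replicate 1 was highest for Fos (1836 CPM, others 1051 to 1177 CPM), Lama5 (368 CPM, others 260.5 to 271 CPM), Wnt4 (169 CPM, others 84.2 to 95.8 CPM), Mmp15 (108 CPM, others 46.5 to 55.6 CPM) and Tnfsf11 (66.3 CPM, others 4.13 to 11.2 CPM). ML replicate 2 was highest for Inhba (52.0 CPM, others 9.54 to 15.2 CPM) and Gja1 (33.6 CPM, others 7.75 to 10.9 CPM), and ML replicate 3 for Col17a1 (18.1 CPM, others 3.16 to 4.82 CPM), Ovol1 (10.2 CPM, others 6.03 to 6.10 CPM) and Col4a2 (9.04 CPM, others 4.88 to 5.34 CPM).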

How the results depend on the processing

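The count of genes called in the WT contrast, 3140, was 871 with replicates 1 and 2 alone (596 higher and 275 lower in basal cells) and 1430 when a change beyond a log2 fold of 1 was required (942 higher and 488 lower). Under the other scalings, filters and tools it lay between 2941 (library totals without TMM) and 4036 (limma voom), with 3126 under DESeq2 size factors and 3847 under DESeq2, and it was 2414 with the 8 libraries alone and 3178 with replicates 3 and 4 alone. Leaving out each basal or ML library in turn, with the LP libraries kept, gave 2498 to 4035 calls (1444 to 2152 higher, 1054 to 1883 lower), the highest without WT basal replicate 2. The share of calls that were higher in basal cells was 57.0%, and it was 68.4% in replicates 1 and 2 alone, 65.9% with the log2 fold of 1, and 56.6% to 60.4% under other scalings. With the replicate number as a block, 3294 genes were called in the 12 WT libraries, 2345 in the 8 libraries and 2653 in the KO contrast, and beyond the genes named above with that fit it ended the calls on Fdft1 and Col3a1 in both WT fits, on Pdgfrb in the 12 WT libraries and on Pkm, mt-Rnr1 and Col1a2 in the 8 libraries, and made Jun and Junb pass. The KO contrast, 2463 calls, ranged from 1774 to 2745 with 1 basal or ML library left out (1113 to 1578 higher, 661 to 1224 lower). The interaction, with no call in the edgeR fit of all libraries, had 1 under limma voom, 1 without WT basal replicate 3 and 3 without KO basal replicate 1, a range of 0 to 3. Of 186 genes followed in 20 alternative settings, 112 kept their call or lack of one in every setting, 0 reversed a called direction, and 59 lost their call with replicates 1 and 2 alone. The calls lost most often were those of Fdft1 and Col3a1, then Tpi1, Xdh, Slc34a2, Tcf4 and Col1a2. For each of these changes the cause was not tested. Recovery was 4.48% for genes changed 2-fold in simulated counts, where far fewer genes were changed than were called in the data. That percentage is therefore not the recovery in these data. A small change that was not called is not shown to be absent.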

Other observations

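Families of dimerising helix-loop-helix proteins differed in make-up between the populations. Of the 4 ID genes, summed per kilobase, Id4 held 45.9% in WT basal and 1.58% in WT ML cells, and Id3 held 26.9% in basal and 66.4% in ML cells. Id1, Id2 and Id3 were not called on their own levels (log2 fold change 1.09, 0.46 and -0.62). Among the E proteins, which ID proteins bind, Tcf12 held 43.4% in basal and 68.1% in ML cells, and Tcf4 40.7% and 18.8%. Tcf4 was higher in basal cells (log2 fold change 0.79, edgeR adjusted p = 0.0354), Tcf12 was lower, and Tcf3 was not called (log2 fold change -0.04).

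Notch receptors, summed per kilobase, differed mainly in Notch3, which held 13.7% in basal and 46.6% in ML cells. Notch2 held 41.7% in basal and 24.4% in ML cells and Notch1 35.4% and 27.4%, and neither was called on its own level (log2 fold change 0.11 for Notch2 and -0.07 for Notch1).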
